A study of Mus musculus with 6 samples.

Results

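Circular RNAs that were assigned to no gene by the authors' annotation formed a small, uneven class in RNA labelled as mouse hippocampus. There were 345 distinct circles on chromosomes 1 to 19, X and Y out of 11895 in all. They were chosen as every circle of the type intergenic region on a placed chromosome, matched between libraries by its location, and 5 more intergenic circles on unplaced scaffolds were left out. The class held 4795 back-splice junction reads. For comparison, 10409 exonic and 1132 intronic circles lay on placed chromosomes.

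The study sequenced RNA labelled as hippocampus, from healthy male C57BL/6 mice aged 14 months, kept free of specific pathogens. One group received a daily subcutaneous injection of dihydrotestosterone (DHT), an androgen that binds the androgen receptor without conversion to oestrogen, for 14 days (the series text also calls it the testosterone group), and the other received the same dose of medical corn oil. Each group had 3 libraries, called DHT 1 to 3 and oil 1 to 3 here for naming only. The labels do not say whether a library came from 1 animal, so the p-values below speak of library-to-library spread, which may be technical. Listed junction reads per library ran from 43512 to 55325, and mapped reads from 143 to 177 M (mega).

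A check of the tissue label gave mixed values. Of 10 genes that mark hippocampal fields, 5 had a mean over 1 FPKM (a level per length and depth) in the assembled loci. Fibcd1, Spink8 and Neurod6 had means of 0.851, 0.290 and 0.0428 FPKM, and Dsp and Lct, which mark the dentate gyrus, were listed at 0. Of 9 genes that mark the striatum, 8 had a mean over 5 FPKM, and Drd1 was listed at 0. Their summed level was 185 to 349 FPKM with DHT, against 266 to 297 FPKM with oil. The summed hippocampal level was 41.8 to 54.6 FPKM with DHT against 33.9 to 51.2 FPKM with oil. Of 5 choroid plexus markers only Ttr, which encodes transthyretin, had a mean over 1 FPKM, and the list summed to 1.29 to 31.0 FPKM with DHT against 3.26 to 79.9 FPKM with oil. The part of tissue makeup in the circle values was not tested, and in bulk RNA fewer cells of a type and less RNA per cell cannot be told apart.

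Circular RNAs arise when the spliceosome joins a downstream 5′ splice site (donor) to an upstream 3′ splice site (acceptor), which closes the exons between them into a ring. A ring has no free end, so exonucleases that degrade linear RNA do not attack it, and brain is known for a large stock of such molecules. A circle is called intergenic when the annotation in use holds no gene around its ends, and long non-coding RNA (lncRNA) genes, antisense transcripts and unannotated exons are where such splice sites can lie. A junction read crosses the back-splice itself, and a linear read is counted by the authors at the same circle, by a rule that is not stated in the labels or files.

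The letters beside the circle ends are shown because they bear on whether an intergenic circle ends at a splice site. Of the ends, 9 distinct acceptor ends and 2 distinct donor ends fell in a RefSeq promoter window (250 bases before to 50 after a gene's start, GRCm38.p6). All 9 acceptor ends were preceded by AG and both donor ends were followed by GT, the letters of the usual splice sites. Among all promoter windows, the same letters at the same offset stood in 4.69% to 13.6%. Whether the authors' caller kept only junctions with these letters is not stated in the labels or files. Below, the 7 acceptors that lie at lncRNA genes are written 5′ to 3′ on the strand of the circle, with 40 bases before the circle and the first 20 of the circle, and the capitals mark the AG.
chr4 Gm42315: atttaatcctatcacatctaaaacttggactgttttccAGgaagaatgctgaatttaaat
chr3 Gm40055: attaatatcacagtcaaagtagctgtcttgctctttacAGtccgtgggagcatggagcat
chrX Gm33605: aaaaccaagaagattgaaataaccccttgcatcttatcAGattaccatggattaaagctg
chrX Gm50594: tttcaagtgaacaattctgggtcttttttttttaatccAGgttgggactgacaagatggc
chr3 Gm42203: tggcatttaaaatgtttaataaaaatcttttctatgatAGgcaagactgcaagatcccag
chr5 Gm29681: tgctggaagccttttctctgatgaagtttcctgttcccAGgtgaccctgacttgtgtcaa
chr7 Gm29729: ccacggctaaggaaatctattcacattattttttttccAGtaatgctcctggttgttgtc

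These stretches lie on the minus strand at chr4:31512045-31512104, chr3:58031774-58031833, chrX:105182445-105182504, chrX:105339643-105339702, chr3:33691988-33692047, chr5:131414717-131414776 and chr7:60939862-60939921, in the order shown. Pyrimidines (C or T) made up 12 of the 20 bases before the AG at Gm42315, 14 at Gm40055, 14 at Gm33605, 15 at Gm50594, 11 at Gm42203, 13 at Gm29681 and 16 at Gm29729. Acceptors are known for a pyrimidine-rich tract at this place. No background share was worked out for these counts, so whether they exceed that of other sequence was not tested. The circles at Gm42203, Gm29681 and Gm29729 had 5 reads or fewer each. At Gm33605 and at Gm42203 the acceptor end coincided with the first base of the RefSeq lncRNA gene (offset 0). A donor end was within reach for a highly read chromosome Y circle. In the line for it the first 20 bases are the last of the circle, on the plus strand at chrY:90793661-90793720, and the capitals mark the GT that follows.
chrY Gm33272: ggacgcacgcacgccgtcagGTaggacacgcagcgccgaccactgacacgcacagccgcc

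The circles differed widely in span, the genomic distance between the ends, introns included. It ran from 160 bases to 189243 bases with a median of 18392 bases, and the middle of the distribution lay between 4557 and 50884 bases. Under 1 kb there were 25 circles (7.25%), and over 50 kb there were 89 (25.8%), against 12.9% of exonic and 32.3% of intronic circles over 50 kb. The shortest listed in 3 or more libraries was chr9:63093427-63093625 with 199 bases, inside the lncRNA gene Gm35658. The next were chr7:60257685-60257912 with 228 bases, inside Snrpn and Snhg14, and chr7:59197791-59198143 with 353 bases. The longest of that kind were chr7:60785638-60902712 with 117075 bases, chr7:60742699-60856304 with 113606 bases and chr12:5451681-5562663 with 110983 bases, and these 3 lay inside assembled loci and not inside a RefSeq gene. By strand, 145 circles were on the plus strand and 200 on the minus strand.

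Library by library, the median span of intergenic circles was 16357, 19134 and 16378 bases in the DHT libraries and 16621, 18392 and 16607 bases in the oil libraries. It averaged 17248 bases over the 6 libraries, against 13224 bases for exonic circles, and was longer in 6 of 6 libraries (exact two-sided paired permutation test, p = 0.03125, the smallest 6 pairs allow, and 0.075 after Benjamini-Hochberg adjustment over the 6 class comparisons). Among circles with at least 5 reads in the library the difference was 302 bases and the p was 0.6875 in the same exact test. Against intronic circles, which averaged 17814 bases, the exact test gave p = 0.625. The same circles occur in several libraries, so these pairs describe these libraries.

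**Figure D1:**
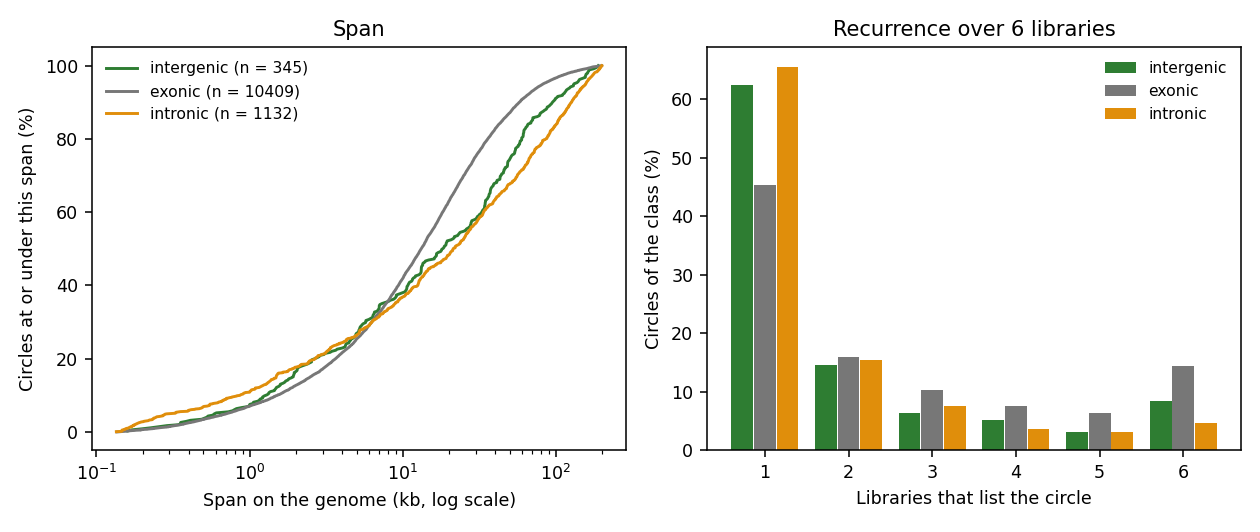
Left, cumulative share of circles (%) by span in kb on a log axis for intergenic, exonic and intronic circles on placed chromosomes; right, the share of each class (%) listed in 1 to 6 libraries. The intergenic curve lies right of the exonic one above about 10 kb, and 62.3% of intergenic circles were listed in 1 library against 45.4% of exonic circles.

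Most intergenic circles were seen in a single library. Of the 345, 215 (62.3%) were listed in 1 library, 50 in 2, 22 in 3, 18 in 4, 11 in 5 and 29 (8.41%) in all 6. Among exonic circles 45.4% were in 1 library and 14.4% in all 6, and among intronic circles 65.5% and 4.68%. A listing needs 2 reads, so an absent circle can still have had 1 read. Of the circles in 1 library, 98 had just 2 reads and the most read had 10, at chr1:177272370-177309816 in oil 1. Every one of the 29 circles in all 6 libraries had at least 25 reads.

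Of the intergenic circles that a library listed, the share also listed in another library was 62.8%, 72.1% and 71.3% in the DHT libraries and 65.1%, 70.6% and 70.3% in the oil libraries. The mean of 68.7% was below the 82.4% of exonic circles in 6 of 6 libraries (difference of -13.7 percentage points, SD 2.79, n = 6, exact two-sided paired permutation test, p = 0.03125, adjusted 0.075). It was above the 63.2% of intronic circles in 5 of 6 libraries (exact p = 0.0625, adjusted 0.075). Depth per circle differs between the classes: 13.6% of intergenic circles had 20 or more reads over all libraries, against 22.8% of exonic and 8.75% of intronic circles. Restricted to circles with 2 to 4 reads in the library, the intergenic share was 52.6% and the exonic share 70.1%, lower in 6 of 6 libraries (exact p = 0.03125). Restricted to at least 5 reads it was 90.6% against 95.1%, a difference of -4.44 points that the exact test did not separate (p = 0.09375).

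Few circles carried much of the signal. The 10 most read circles held 1955 reads (40.8% of the class), and the most read one, chrY:90739142-90793417, held 726 (15.1%). At the other end 196 circles had under 5 reads.

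The label intergenic did not mean empty sequence in a second annotation. In RefSeq on GRCm38.p6, 271 of the 345 circles overlapped a gene. Wholly inside a lncRNA gene lay 75 circles with 1216 reads, and 56 of these were on the strand of the gene, 1 on the opposite strand and 18 on a gene of unknown strand in the table. Wholly inside a protein-coding gene lay 38 circles with 709 reads, 33 of them on its strand. A gene edge was crossed by 136 circles with 1009 reads, 20 circles with 1046 reads held whole genes, 2 lay inside another kind of gene, and 74 circles with 808 reads touched no RefSeq gene. The 74 circles that touched no RefSeq gene had a median span of 4099 bases, against 32196 bases for those that crossed a gene edge. These classes are set by what the span touches, and a longer span touches more, so the contrast is no separate result.

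Transcript loci assembled in the same libraries gave a further readout. Of the intergenic circles 195 (56.5%) lay inside an assembled locus on the same strand, spread over 103 loci, against 95.0% of exonic and 92.0% of intronic circles. Both ends of 59 circles (17.1%) matched a boundary of an assembled exon or event exactly, against 20.1% of exonic and 10.2% of intronic circles, and 1 end matched for 117 circles. In neither a RefSeq gene nor an assembled locus lay 37 circles. Many circles shared an end position: 171 (49.6%) had a start or an end in common with another intergenic circle, and up to 6 circles used a single end. By overlap on one strand the 345 circles fell into 213 groups, of which 162 were single circles and the largest held 33.

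Linear reads beside the circles are given first as a median per circle, an alternative to the main measure, which pooled the reads per library. The circular share, junction reads as a percent of junction plus linear reads, had a median over the intergenic circles listed in a library of 19.6%, 12.9% and 13.7% in the DHT libraries and 13.3%, 11.8% and 15.4% in the oil libraries. These averaged 14.4%, against 2.25% for exonic and 3.32% for intronic circles. They were higher in 6 of 6 libraries in both comparisons (exact two-sided paired permutation test, p = 0.03125 each, not adjusted). A listing needs 2 junction reads, so a circle with few linear reads can be listed only with a large share. The circular share was not compared among circles with at least 5 reads, as span and recurrence were. With reads pooled per library the intergenic share was 7.01% against 2.55% for exonic and 2.92% for intronic circles, higher in 5 of 6 libraries (exact p = 0.0625 each, adjusted 0.075). The exception was DHT 2 with 1.34%, where chr17:39845026-39845378, with 4 junction reads, had 55193 linear reads. The assembled locus around it, CT010467.1, was listed at 0 FPKM in DHT 2, where 0 can be a failed estimate, and at 87.4 to 398 FPKM in the other libraries. Without that circle, a removal chosen after its values were seen, the pooled intergenic share was 8.46% and higher in 6 of 6 libraries (exact p = 0.03125 against each class).

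By position, the median share over circles was 40% for those without a RefSeq gene, 22.6% inside lncRNA genes, 8.45% for those that crossed a gene edge and 5.91% inside protein-coding genes. No linear read was listed for 27 circles, none of them with more than 8 junction reads, and 59 circles had more junction than linear reads. Among the 47 circles with at least 20 junction reads the share ran from 2.27% to 93.5% with a median of 18.2%.

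**Figure D2:**
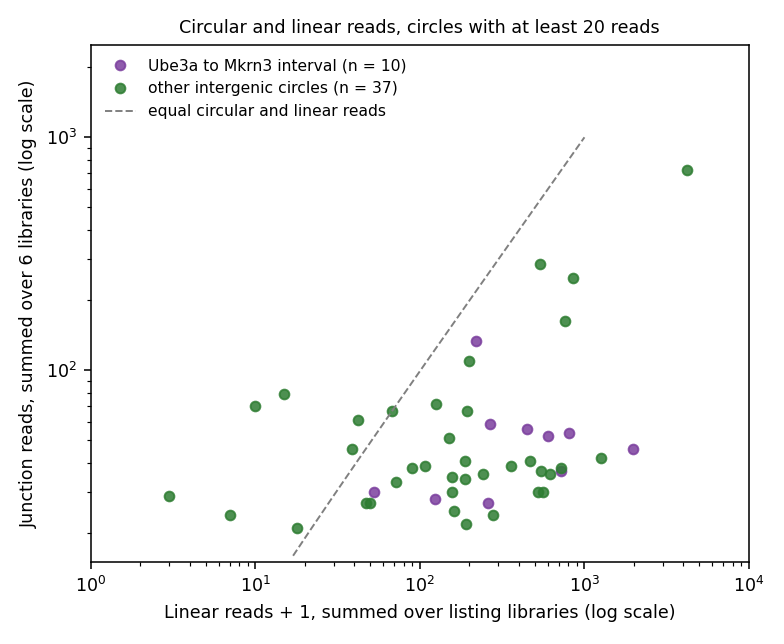
Junction reads against linear reads plus 1, both summed over the libraries that list the circle, on log axes, for the 47 intergenic circles with at least 20 junction reads; the dashed line marks equal reads. Of the 47 points 7 lie left of the line, where the circular share is over 50%, and the 10 circles of the chromosome 7 interval lie right of it.

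The circles with the largest share had few linear reads. At chr2:169064379-169068567, 4189 bases that touch no gene of either annotation, junction reads were 7, 4 and 5 with DHT, against 2, 7 and 4 with oil, with 2 linear reads in all (93.5%). At chr4:31510612-31512064, whose acceptor before Gm42315 is printed above, 70 junction reads stood beside 9 linear reads (88.6%). At chr15:5322244-5333050, which crosses the edge of the lncRNA gene Gm41257, junction reads were 14, 9 and 15 with DHT, against 19, 14 and 8 with oil, with 14 linear reads (84.9%). A shorter circle from the same start, chr15:5322244-5323612, had 61 junction reads and 41 linear reads (59.8%). At chr12:68895074-68896731 the share was 80%, from 24 junction reads.

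At the low end were circles with many linear reads. The smallest share was 2.27% at chr7:59284026-59334066, from 46 junction reads and 1981 linear reads, on the strand of Snhg14 and antisense to Ube3a. Next came chr5:150604177-150647548 in N4bp2l2 with 3.23%, chr7:61072717-61134591 in the lncRNA gene A230006K03Rik with 4.86%, chr12:109718114-109718499 in the assembled locus of Mirg, a host RNA of many miRNAs, with 4.99%, and chr19:34795615-34827373 at Pank1 with 5.12%.

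Positions were uneven over the genome. Chromosome 7 carried 77 of the 345 circles (22.3%), chromosome 12 carried 30, and chromosomes 17 and 4 carried 22 each. On chromosome 7, 57 circles (16.5% of the class) with 803 junction reads (16.7%) lay between Ube3a and Mkrn3, chr7:59228750-62420153, an interval that was singled out after the positions were seen and gets no test. Genes of this interval are imprinted: Snrpn, Snhg14, Ndn and Mkrn3 are transcribed from the paternal chromosome, while Ube3a, a ubiquitin ligase, is expressed from the maternal one in neurons, where Snhg14 runs antisense across it. Human deletions of the matching region cause Prader-Willi and Angelman syndromes. All 57 circles were on the minus strand, the strand of Snhg14 and Snrpn.

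Circles of the interval were long, with a median span of 50041 bases against 13168.5 bases for the other 288 intergenic circles, and their median circular share was 4.86% against 18.2%. In the assembled locus of A230006K03Rik lay 33, and 5 lay in that of Snurf. The authors' annotation placed 25 of the 10409 exonic and 319 of the 1132 intronic circles in the same interval. That is a larger part of the intronic than of the intergenic class, so the gathering there was not particular to intergenic circles. Junction reads of the 57 circles summed to 140, 131 and 124 with DHT, against 126, 128 and 154 with oil, so the groups overlapped. The A230006K03Rik locus had 9.70, 8.12 and 7.05 FPKM with DHT against 7.59, 12.03 and 9.35 FPKM with oil. The Snurf locus had 206, 201 and 202 FPKM with DHT, against 193, 186 and 191 FPKM with oil, so its groups did not overlap, a difference that was not tested.

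**Figure D3:**
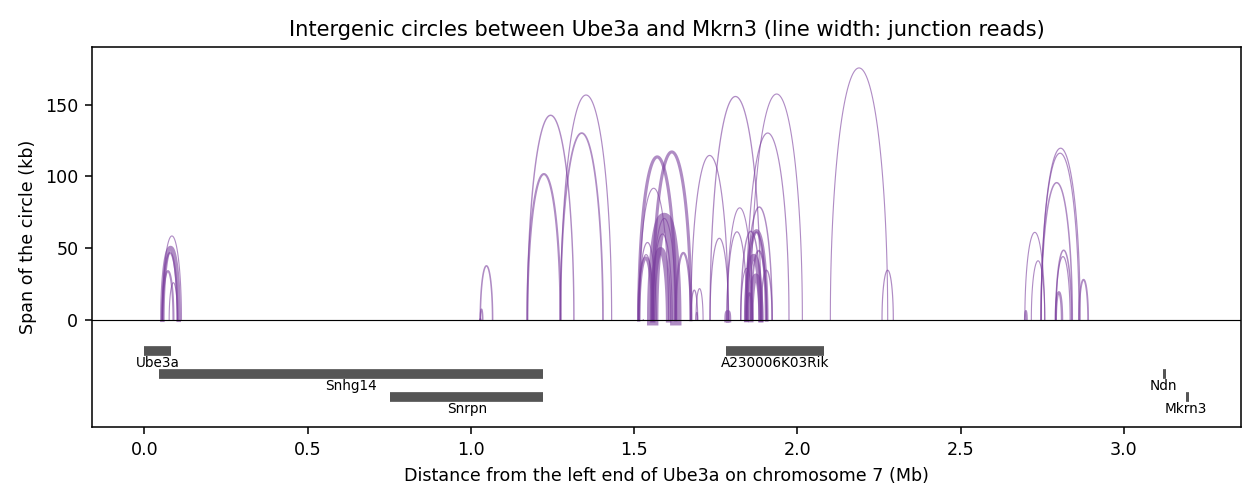
Each arc joins the ends of 1 of the 57 intergenic circles between Ube3a and Mkrn3, its height is the span in kb, its width grows with junction reads, and the x axis is the distance in Mb from the left end of Ube3a; grey bars are RefSeq genes. The arcs gather left of and inside A230006K03Rik, in a group of 33 circles, with smaller groups over Ube3a and left of Ndn.

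The group of 33 overlapping circles spanned 501 kb, chr7:60742699-61243932, and held 586 junction reads, with 110, 94 and 87 with DHT, against 101, 88 and 106 with oil. Its most read circle, chr7:60785638-60856304, had 134 junction reads and a circular share of 38.0%, and both of its ends matched assembled boundaries although no RefSeq gene overlaps it. From the same end started chr7:60785638-60834432 with 59 reads and chr7:60785638-60902712 with 27 reads. Inside A230006K03Rik the end at 61072717 was the one used by 6 circles, among them chr7:61072717-61116959 with 52 reads and a share of 7.98%.

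A second such group lay on the plus strand of chromosome 12, where 20 overlapping circles with 244 reads spanned 605 kb, and 16 of them, with 220 reads, lay inside the assembled locus Gm32442. Its sums were 43, 41 and 42 with DHT, against 34, 30 and 54 with oil. Its 2 circles with at least 20 reads, the 1172-base chr12:5451681-5452852 with 110 reads and the 110983-base chr12:5451681-5562663 with 41 reads, share a start. In N4bp2l2 on chromosome 5, 5 circles held 371 reads, with 61, 71 and 58 with DHT, against 79, 63 and 39 with oil, and N4bp2l2 is annotated on the same strand in RefSeq.

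Some spans hold miRNA genes. MicroRNAs pair with targets through the seed, bases 2 to 8, and below the seed is in capitals to show which share it (RefSeq, GRCm38.p6).
mmu-miR-344-5p: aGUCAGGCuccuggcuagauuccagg
mmu-miR-344g-5p: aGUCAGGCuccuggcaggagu
mmu-miR-344f-5p: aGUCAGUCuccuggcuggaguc
mmu-miR-107-3p: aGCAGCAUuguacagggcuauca

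The seed GUCAGGC is shared by mmu-miR-344-5p and mmu-miR-344g-5p, and that of mmu-miR-344f-5p is another. Members of the miR-344 cluster lay in the spans of 7 circles of the chromosome 7 interval, with 17 reads in the 5 circles around miR-344g and 23 reads in the 5 around miR-344f. The gene of miR-107, which sits in Pank1, a kinase of coenzyme A synthesis, lay in 2 circles with 32 reads. A span includes introns, and whether the circular molecule keeps the miRNA cannot be read from junction counts.

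The most read circle of the class varied widely between libraries. Junction reads of chrY:90739142-90793417 were 252, 102 and 16 with DHT, against 165, 165 and 26 with oil. Its partner chrY:90739142-90793680, with the same start and the donor printed above, had 60, 45 and 0 with DHT, against 36, 21 and 0 with oil. DHT 3 and oil 3 were low for both. Within a group the spread was wide, and the groups overlapped.

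Both circles lie in the assembled locus Gm47283, whose level was 7.31, 9.94 and 0.596 FPKM with DHT against 10.3, 10.1 and 1.03 FPKM with oil, so the same 2 libraries were low in the linear readout. Linear reads at the first circle were 698, 1023 and 103 with DHT, against 1085, 955 and 349 with oil. The span holds the protein-coding gene Gm52481, on the strand of the circles, and Mid1-ps1, a pseudogene of Mid1. It lies near the end of the Y chromosome where sequence is shared with the X, so near-identical copies make the position uncertain. Together the 2 circles gave 29.2%, 17.3% and 2.70% of the intergenic junction reads with DHT against 23.4%, 24.2% and 3.98% with oil. The share of the class in all junction reads is therefore given with and without them below.

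**Figure D4:**
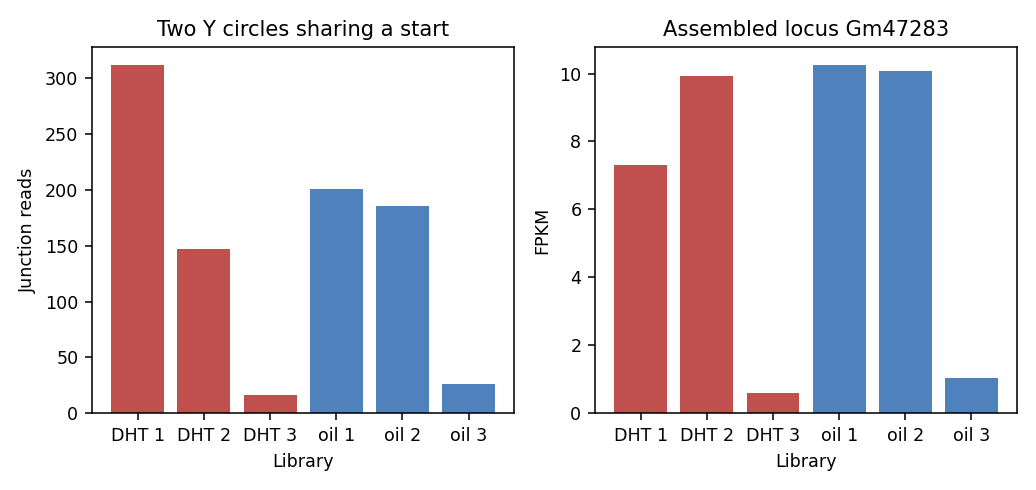
Left, summed junction reads of the 2 most read chromosome Y circles, which share a start; right, the FPKM of the assembled locus Gm47283 that holds them, both by library with DHT left of oil. DHT 3 and oil 3 are the lowest of their groups in both panels, with 16 and 26 junction reads.

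Which circles changed with DHT was asked first over the class as a whole. The intergenic share of all junction reads was 1.93%, 1.71% and 1.36% with DHT against 1.78%, 1.68% and 1.501% with oil, or 1.67% ± 0.286 and 1.65% ± 0.142 (SD, n = 3 each, exact two-sided permutation test, p = 0.9). Without both Y circles it was 1.37% ± 0.0436 with DHT against 1.36% ± 0.0832 with oil (exact p = 0.9). Libraries listed 137, 111 and 108 circles with DHT and 106, 109 and 111 with oil (exact p = 0.5). Median span gave p = 1 in the exact test. As a geometric mean, span was 12437, 11235 and 10755 bases with DHT against 12613, 12685 and 12778 bases with oil, so the groups did not overlap (exact p = 0.1). For the pooled circular share the values were 5.19% ± 3.62 with DHT against 8.82% ± 0.634 with oil (SD, n = 3 each, exact p = 0.2). Without chr17:39845026-39845378 the DHT share was 8.10% ± 2.19 (exact p = 0.8). With 3 libraries against 3 no exact p can go under 0.1.

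By listing, 129 intergenic circles (37.4%) were seen with DHT only, 112 (32.5%) with oil only and 104 in both groups. Among all 11895 circRNAs the shares were 30.2% with DHT only and 25.2% with oil only. Among intronic circles they were 39.0% and 33.7%, so the larger shares were not particular to intergenic circles. The libraries with the most junction reads were DHT 1 and DHT 2. Of the intergenic circles with DHT only, 16 were in at least 2 libraries (4.64%, against 4.70% of all circRNAs) and 3 in all 3 (0.87%, against 0.757% of all). Of those with oil only, 10 were in at least 2 (2.90%, against 2.93% of all) and 0 in all 3 (against 0.261% of all). The 3 were chr2:143420619-143486483, chr15:58340613-58342570 with 5, 6 and 2 reads, and chr7:61086447-61134591 with 4, 3 and 5 reads, and the last pair was named after its values were seen.

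Over single circles no difference passed the test. Of the 47 intergenic circles with at least 20 reads, 0 had an adjusted p under 0.05 (edgeR's quasi-likelihood test with Benjamini-Hochberg adjustment over 2524 circRNAs of every type, of which 0% were called). The smallest adjusted p among them was 0.996, and DESeq2 also called 0. At an unadjusted p under 0.05 there were 2 with edgeR and 1 with DESeq2, against 3.13% of all circles tested with edgeR. Past the cut-off of the authors' design, at least 2-fold with p under 0.05 before adjustment, were 2 circles in the edgeR fit. Of these 1 was higher and 1 lower. Among all circles tested 2.26% passed, 1.27% higher and 0.99% lower. The groups did not overlap for 5 of the 47 circles (10.6%), against 11.1% of all circles tested, with 2 higher (5.74% of all) and 3 lower (5.31% of all). The fitted value was higher with DHT for 22 of the 47 (46.8%), against 50.4% of all circles tested, and lower for 25. The median log2 fold change was -0.09 over the 47 against 0.01 over all circles tested. A p that misses the threshold does not show that the circles were alike.

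**Figure D5:**
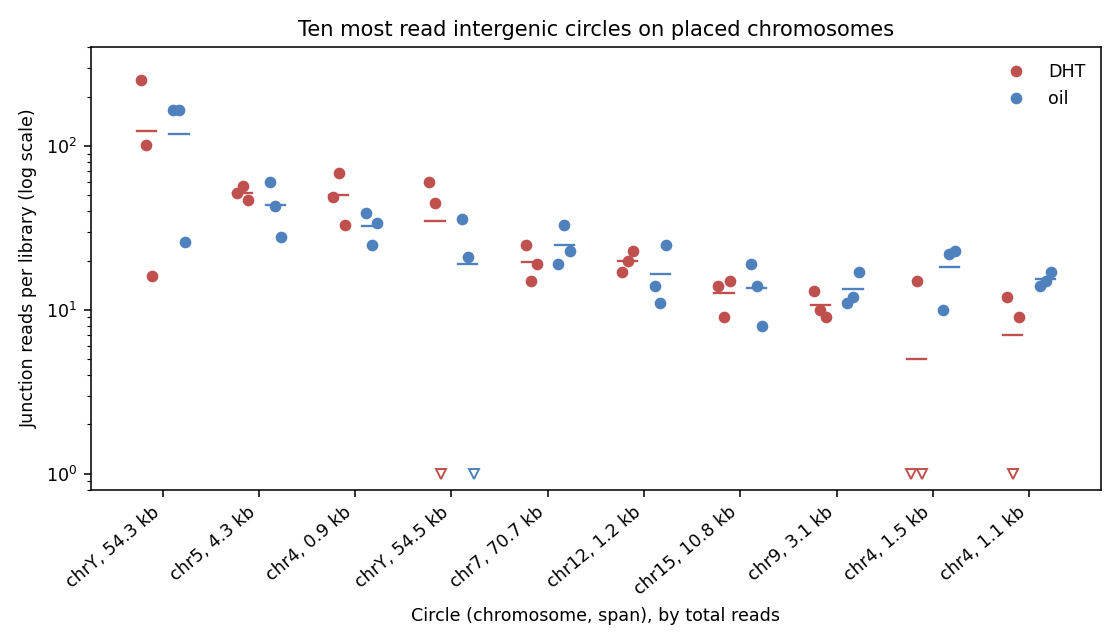
Junction reads per library on a log axis for the 10 most read intergenic circles, with DHT points left of oil points; short lines are group means and open triangles at the bottom mark libraries that did not list the circle. Groups overlap for 9 of the 10 circles, and the last one, at chr4:23771757-23772887, has its 3 oil points above its DHT points.

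The circle with the smallest unadjusted p, chr2:143420619-143486483 inside the lncRNA gene Gm33599, had 8, 6 and 7 reads with DHT and was unlisted in all 3 oil libraries. With each oil library set to a floor of 3 reads, the observed DHT mean was 2.15-fold the oil value. The floor allows for counting error in the oil libraries only, and the counting error of the DHT reads is left out. For this circle edgeR's adjusted p was 0.996. Its linear reads, given only where it was listed, were 5, 5 and 7 with DHT.

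The lower one was chr4:31510612-31512064 at Gm42315, with 0, 15 and 0 reads with DHT, against 10, 22 and 23 reads with oil. Its log2 fold change was -1.98 ± 0.88 (SE, adjusted p = 0.996 in edgeR). The 15 reads of DHT 2 fall within the range of the oil libraries, while DHT 1 and DHT 3 did not list it. Without DHT 2 no DHT library lists the circle, and the fitted value of -7.27 (adjusted p = 0.177 in edgeR) then depends on the prior count. Leaving out any other single library gave -2.29 to -1.37 (adjusted p of 0.992 to 0.999 in edgeR). At chr4:23771757-23772887, in the lncRNA gene Gm31145, reads were 12, 0 and 9 with DHT, against 14, 15 and 17 with oil, with no overlap and a log2 fold change of -1.24 ± 0.67 (SE, edgeR). Without DHT 2, which did not list it, the log2 fold change was -0.65.

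On the higher side, chr19:34795615-34827373 at Pank1, the circle around miR-107, had 11, 3 and 11 reads with DHT, against 2, 0 and 3 reads with oil. Its log2 fold change was 2.12 ± 1.06 (SE, adjusted p = 0.996 in edgeR), and DHT 2 overlapped the oil libraries. Linear reads at this circle were 114, 113 and 118 with DHT against 123 and 88 in the 2 oil libraries that listed it. The circle chr12:68895074-68896731 had 5, 12 and 4 reads with DHT, against 0, 3 and 0 reads with oil, without overlap, and a log2 fold change of 2.56 ± 1.40 (SE, edgeR). Without oil 2 no oil library lists it, and the fitted value of 5.79 then depends on the prior count.

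Other circles on the higher side had smaller fitted values. At chr4:142410457-142411344, 888 bases inside the lncRNA gene Gm42339, reads were 49, 68 and 33 with DHT, against 39, 25 and 34 with oil, or 1003 ± 333 and 715 ± 149 reads per M (mega) junction reads (SD, n = 3 each). Its log2 fold change was 0.49 ± 0.29 (SE, adjusted p = 0.996 in edgeR), and 0.22 without DHT 2. At chr3:58031207-58031793, whose acceptor before Gm40055 is printed above, reads were 15, 11 and 7 with DHT, against 4, 10 and 4 with oil. The groups overlapped at both circles.

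Among the lower values, the most read circle of the chromosome 7 interval, chr7:60785638-60856304, had 25, 15 and 19 reads with DHT, against 19, 33 and 23 reads with oil (log2 fold change -0.47 ± 0.34, SE), with -0.29 without DHT 2 and -0.20 without oil 2. At chr7:61072717-61116959 reads were 7, 5 and 8 with DHT, against 8, 6 and 18 with oil, where oil 3 stood above the rest. At chr5:150606720-150608440 in N4bp2l2 reads were 5, 5 and 4 with DHT, against 6, 8 and 9 with oil, with no overlap but few reads.

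The rest of the most read circles had values that overlapped between the groups. At chr5:150604177-150608440 in N4bp2l2, 287 reads divided into 52, 57 and 47 with DHT, against 60, 43 and 28 with oil. At chr12:5451681-5452852 reads were 17, 20 and 23 with DHT, against 14, 11 and 25 with oil. At chr9:72230266-72233329 in the lncRNA gene Gm27188 they were 13, 10 and 9 with DHT, against 11, 12 and 17 with oil.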

How the data were processed

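The authors deposited, for 6 libraries, counts of back-splice junction reads and of linear reads at each circRNA, listing circRNAs of at least 2 reads, and an unlisted circRNA was set to 0. A deposited score per circRNA, SRPBM (junction reads scaled to mapped reads, named in the series' design text) rounded to whole numbers by the authors, was used only to work out mapped reads. Per the file headers, FPKM values describe exons and splicing events of loci that the authors assembled; a locus value is the larger of its summed first-exon and summed last-exon events. Per the submitters' processing notes, the tools were HISAT2 2.0.1, BWA, cutadapt and bcl2fastq 2.17.1.14, with no roles. DESeq2 1.6.3 is also listed among the submitters' tools. No source used here names the circRNA caller. Those notes give mm9 as the build. Of 11391 circles whose host gene RefSeq holds, however, 99.5% fell within the GRCm38 bounds of that gene, and coordinates are read as GRCm38.

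The members and lists were chosen with earlier results of these data known. Circles named are the 10 most read, the 5 smallest p in each direction, the 3 shortest and 3 longest in at least 3 libraries, and the 5 largest and 5 smallest circular shares among those with at least 20 reads; other circles named, such as those that share an end with one of these, were chosen after their values were seen. All circRNAs with at least 20 junction reads (2524) were fitted with edgeR 4.0.16 (quasi-likelihood, TMM, R 4.3.3), and DESeq2 1.42.0 was an alternative. The test was tried on simulated counts. Single values were compared by exact two-sided permutation tests. Promoter windows and miRNAs came from RefSeq tables, GRCm38.p6; Python 3.11.15 read the files. Counts of same-group libraries varied beyond counting noise (2.06 to 2.92 as chi-square over its degrees of freedom). The floor covers counting error in the unlisted libraries only, while an SE comes from edgeR's fit, which includes spread between libraries.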

Additional observations from a re-analysis of the deposited data

How the results depend on the processing

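No intergenic circle was called under any alternative, by edgeR's quasi-likelihood test or by DESeq2. Of circRNAs of every type, edgeR called 6 of 5972 with at least 6 junction reads, 5 of 11895 without a filter and 1 of 2156 without DHT 2. Under each of the other alternatives 0 of every type were called. The count past the threshold of the series was 2 of 47 in the report, where 57 of 2524 circRNAs of every type passed. With DESeq2 it was 1 of 47 (57 of 2524 of every type). With at least 6 junction reads it was 6 of 129 (165 of 5972), and without a filter 7 of 345 (175 of 11895). Among circles listed in at least 3 libraries it was 4 of 80 (173 of 4323). Leaving out 1 library gave 0 to 3 of 42 to 47 circles tested, with 0 without DHT 1 and 0 without DHT 3. In those fits 44 to 81 of 2144 to 2259 circRNAs of every type passed. Differences between DHT and oil libraries changed sign: the share of junction reads became -0.039 percentage points without unplaced scaffolds and ran from -0.119 to 0.165 when 1 library was left out; the difference in median span became -685.5 bases with at least 5 reads and -1216 bases as a geometric mean, where the groups did not overlap (exact p = 0.1, the smallest 3 against 3 allow), and ran from -839 to 676 bases; the circular share became 1.91 points as a median per circle. Against exonic circles, leaving out 1 library gave -14.5 to -13.0 points of recurrence and 3651 to 4214 bases of span, and 5 pairs cannot reach an exact p under 0.0625. With at least 5 reads these were -4.44 points and 302 bases, and weighting span by reads gave 10427 bases (exact p = 0.09375). Against intronic circles, the median span was longer by 2553 bases with at least 5 reads, by 9367 bases weighted by reads, and ran from -1212 to 278 bases with 1 library left out. The circular share was stronger as a median per circle, by 12.2 points against exonic and 11.1 against intronic circles, and without the circle with the most linear reads, by 5.91 and 5.54 points. The circular share was not compared at 5 or more reads. The causes were not tested. No paired analysis was possible because the labels give the DHT and oil libraries no shared replicate numbers, and the numbers 1 to 3 used here only name libraries. The alternatives without both Y circles, without the Ube3a to Mkrn3 interval and without the circle with the most linear reads were chosen after seeing the data.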
